A study of Mus musculus with 30 samples.

Results

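The replication-dependent histone genes were compared between cells sorted as early G1, late G1 and G2 from mouse embryonic stem (ES) cells. They were taken as the rows of the exonic count table whose symbol begins with Hist1h, Hist2h, Hist3h or Hist4h and whose counts sum to at least 100 over the 18 RNA-seq libraries. This gave 60 genes of the 20300 in the table: 6 of type H1, 15 of H2A, 17 of H2B, 10 of H3 and 12 of H4. In mm9, the build of the files, 50 lie in the Hist1 cluster on chromosome 13, 6 in Hist2 on chromosome 3, 3 in Hist3 on chromosome 11 and 1, Hist4h4, on chromosome 6. Just inside the limit were Hist1h2ao with 531 counts, Hist1h4m with 569 and Hist1h1t with 1339. The 2 rows outside it were Hist2h2aa2 with 9 counts and Hist2h3c1 with 0.

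The cells were EKOiE-Ccna-Gfp, an ES line of strain 129/Ola in which Esrrb is knocked out and supplied again by a transgene that needs doxycycline (DOX), with a Ccna2-Gfp reporter by which living cells were sorted. All groups carry the knockout, the transgene and the reporter, and the labels name this 1 line. Cells were grown on gelatine with serum and LIF, and sorted as early G1, late G1 or G2, either with DOX or 24 h after its withdrawal, with 3 libraries for each of the 6 groups. The labels do not say whether these came from separate cultures, so p-values measure the spread between these samples, which may be technical.

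Core histones H2A, H2B, H3 and H4 form the nucleosome, and the linker histone H1 binds the DNA between nucleosomes. Replication-dependent genes supply them in S phase, when new DNA is packed. Their mRNAs end in a stem-loop bound by SLBP rather than in a poly(A) tail, and are degraded when replication stops. No S-phase fraction was sorted, and their levels in S phase were not measured. The libraries were made with the TruSeq Stranded mRNA kit, which selects polyadenylated RNA. How much of each histone mRNA carried a tail was not measured. None of the 4 other RNAs without a tail that had been listed as controls (Rmrp, Rpph1, Rn7sk, Terc) has a row in the table, and the selection could not be checked with them.

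Libraries held 11.1 to 31.8 M (mega, that is 1e+06) exonic counts. Esrrb, the gene under DOX control, stood at 203, 278 and 247 counts per M counts (CPM) in early G1 with DOX and 140, 193 and 155 after withdrawal. In late G1 it stood at 323, 286 and 341 CPM with DOX and 160, 162 and 173 after withdrawal, and in G2 at 304, 262 and 254 against 195, 193 and 183. Every withdrawn library was below every DOX library of its phase. The mean log2 change over the 3 phases was -0.68 ± 0.08 (SE, edgeR adjusted p = 3.75e-05), and the counts do not separate the transgene from the disrupted gene. All 8 ES cell markers were expressed, with summed levels of 4253 to 6058 CPM. The summed markers of fibroblasts reached 12.4 CPM at most, those of primitive endoderm 15.9, of mesendoderm 6.19, of trophoblast 79.1 and of the neural lineage 184, and the 4 measured 2-cell-like markers ranged from 65.7 to 439 CPM.

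The clustered histone genes were among the abundant transcripts of every library. They took 1.20% to 3.48% of the exonic counts. All 60 passed the filter on low counts, as did 14092 genes in all. Level comparisons between genes are given as CPM per kb of the deposited transcript, averaged over the 18 libraries. The 3 H2B genes with an intron, Hist1h2bc, Hist1h2be and Hist1h2bp, are left out of these, since exon length is not in the files.

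Among the H4 genes the highest were Hist1h4j with 3847 CPM per kb, Hist1h4h with 3191, Hist1h4c with 3102 and Hist1h4k with 3085. Such orders depend on the length of the deposited transcript. Hist1h4j has the shortest of the H4 genes, 312 bp, and in CPM alone its mean of 1200 was below the 1388 of Hist1h4h. The lowest of the 9 abundant H4 genes was Hist1h4i, at 2756 CPM per kb. H4 genes outside the Hist1 cluster were far lower, with 158 CPM per kb for Hist2h4 and 108 for Hist4h4. H3 genes of the Hist1 cluster were led by Hist1h3b with 1164 CPM per kb, Hist1h3e with 1161, Hist1h3i with 1053 and Hist1h3h with 1033. In CPM alone Hist1h3f had the highest mean of the H3 genes, 562, but over 903 bp this gave 622 CPM per kb.

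For H2A the leading genes were Hist1h2ai with 1131 CPM per kb, Hist1h2ag with 1053, Hist1h2ac with 1010 and Hist1h2ad with 953. For H2B they were Hist1h2bn with 1175 CPM per kb, Hist1h2bj with 1134, Hist1h2bl with 1113 and Hist1h2bf with 1112. Neighbours in these orders differ by far less than each gene's range over the libraries. The testis forms Hist1h2aa and Hist1h2ba, neighbours at the end of the Hist1 cluster, had 168 and 565 CPM per kb. Hist2h2be, whose deposited transcript is 2618 bp long, had 3.81.

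Among linker histones Hist1h1a led with 523 CPM per kb, followed by Hist1h1c with 146, Hist1h1d with 118 and Hist1h1e with 113. Hist1h1b had 57.5 CPM per kb, and the testis form Hist1h1t had 5.60. Over the libraries Hist1h1a ranged from 195 to 516 CPM with a median of 405, whereas Hist1h1c ranged from 20.7 to 166 with a median of 110.5.

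How the copies vary bears on every count of genes given here. Total counts per gene had a median of 352353 for H4, 154340 for H3, 140543 for H2B, 136340 for H2A and 28314 for H1. Within a type they ran from 97731 to 172994 for H3 but from 569 to 426608 for H4, where the low-count genes are included. To see whether copies vary on their own, the counts of each pair of genes over the 18 libraries were compared with a fixed ratio, as the chi-square divided by its 17 degrees of freedom. Independent counts in a fixed ratio give about 1. The lower 5% point of such values is 0.51, and pairs under 0.5 are called tight here, a limit chosen after the values were seen.

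Tight pairs were seen within H2A, H2B and H3, in 13 of 105, 3 of 136 and 1 of 45 pairs, and in 0 of 66 pairs of H4, 0 of 15 of H1 and 0 of 1403 pairs of different types. The lowest were 0.0553 for Hist3h2ba and Hist3h2bb-ps, 0.0629 for Hist1h2ah and Hist1h2ai, 0.0837 for Hist1h2ad and Hist1h2ag, and 0.171 for Hist1h2bf and Hist1h2bl. Between Hist1h2ah and Hist1h2ai the ratio of counts stayed between 0.966 and 0.983 in all 18 libraries. In all, 9 H2A, 6 H2B and 2 H3 genes belong to a tight pair, 17 of the 60. For independent counts in a fixed ratio about 5% of pairs would lie under 0.51. The shares of H2B and H3 pairs were below that, and the H3 pair, Hist1h3h and Hist1h3i, had 0.414. For H4 the lowest value was 0.991 and the median 13.0. Chi-square grows with the number of counts for the same relative departure from a fixed ratio. H4 genes had the highest median total, so this measure alone does not rank the types. The sources used here do not say how a read that matches several copies was counted. The levels of single genes in tight pairs are uncertain, and those of near-identical copies may be too, so members of a type are not taken as independent measurements.

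Pairs of H1 genes had a median chi-square of 20.8 per degree of freedom and a median correlation of log2 CPM of 0.69. That correlation was 0.996 for H2A, 0.992 for H2B and 0.989 for H4. Sequence identity between copies was not computed.

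**Figure D1:**
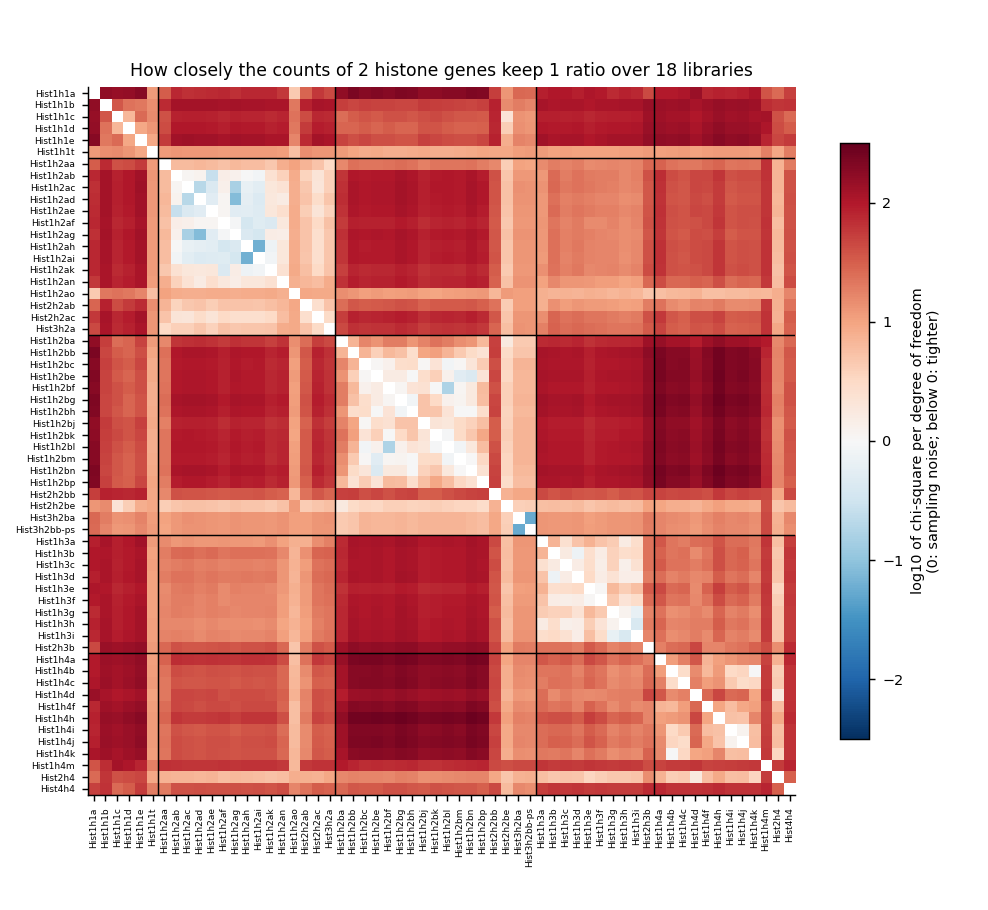
Chi-square per degree of freedom, on a log10 colour scale, for each pair of the 60 histone genes over the 18 libraries, with lines between the types H1, H2A, H2B, H3 and H4 and a blank diagonal. The bluest cells, with values below sampling noise, lie inside the H2A, H2B and H3 blocks, and pairs of different types are red.

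The promoters differ in sequence between the types. RefSeq promoters (GRCm38.p6, 250 bases before to 50 after the start) could be matched for 54 of the 60 genes. They were searched on both strands for CCAAT, bound by NF-Y, for the TATA box TATAAA, and for the octamer ATTTGCAT, bound by POU factors such as Oct1 and Oct4. A match of letters is a description, not a bound site.

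CCAAT was found in 6 of 6 H1, 15 of 15 H2A, 14 of 14 H2B and 8 of 8 H3 promoters, but in 3 of 11 H4 promoters (27.3%). It occurred in 37.4% of the 32851 promoters in the table. TATAAA was found in 61.1% of the members' promoters, against 13.6% of all, with 50% for H3 and 66.7% for H1 as the extremes among types. These counts take in matches on either strand and at any place. On the gene's strand and beginning 20 to 40 bases before the start, it was found in 12 of the 54 promoters. That share was not computed for all promoters. ATTTGCAT was found in 7 of 15 H2A and 6 of 14 H2B promoters, in 0 of 6 H1, 0 of 8 H3 and 0 of 11 H4, and in 1.74% of all promoters. Neighbouring H2A and H2B genes can share the same octamer, which is then counted for both types.

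The 120 bases before the start are shown for a pair of genes each of H1, H3 and H4, on the strand of the gene and with all matches of these motifs on either strand in capitals (ATTGG is CCAAT read on the other strand). They lie at chr13:23763548-23763667 (+), chr13:23554912-23555031 (+), chr13:23752225-23752344 (+), chr13:21717508-21717627 (+), chr13:21734914-21735033 (+) and chr13:21750554-21750673 (-).
Hist1h1a: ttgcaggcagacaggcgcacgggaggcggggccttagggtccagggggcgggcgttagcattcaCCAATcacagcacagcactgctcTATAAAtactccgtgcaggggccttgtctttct
Hist1h1d: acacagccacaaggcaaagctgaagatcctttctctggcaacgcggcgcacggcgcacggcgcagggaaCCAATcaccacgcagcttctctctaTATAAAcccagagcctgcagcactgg
Hist1h3b: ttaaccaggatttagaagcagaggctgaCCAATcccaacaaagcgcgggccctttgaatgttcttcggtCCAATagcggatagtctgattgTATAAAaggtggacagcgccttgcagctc
Hist1h3h: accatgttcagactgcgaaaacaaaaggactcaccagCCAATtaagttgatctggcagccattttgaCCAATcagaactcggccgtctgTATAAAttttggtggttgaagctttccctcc
Hist1h4j: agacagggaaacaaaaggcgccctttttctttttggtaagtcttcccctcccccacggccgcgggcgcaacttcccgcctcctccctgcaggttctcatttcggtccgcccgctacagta
Hist1h4k: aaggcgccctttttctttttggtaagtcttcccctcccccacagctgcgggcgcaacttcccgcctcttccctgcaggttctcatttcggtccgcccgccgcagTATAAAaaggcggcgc

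In these H1 and H3 promoters a CCAAT on the gene's strand is followed by TATAAA. The CCAAT begins 56 bases before the start in Hist1h1a, 51 in Hist1h1d, 51 in Hist1h3b and 53 in Hist1h3h, and TATAAA begins 33, 26, 29 and 31 bases before it. All 6 H1 promoters and 6 of 8 H3 promoters hold a CCAAT on the gene's strand that begins 45 to 65 bases before the start. The TATAAA is less general. Of the leading H1 and H3 genes not shown, Hist1h1e has it 27 bases before the start and Hist1h3i 147, and Hist1h1c and Hist1h3e hold none. The H4 stretches shown share a long run of the same letters and hold no CCAAT. The leading H4 genes not shown, Hist1h4h and Hist1h4c, lack that run. Hist1h4c has CCAAT 146 and 126 bases before the start, and Hist1h4h holds none. In Hist1h4j a TATAAA begins 2 bases before the start and is cut off by the end of the stretch.

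H2A and H2B genes lie head to head. In 11 pairs an H2A and an H2B gene are transcribed away from each other with starts 173 to 306 bp apart (median 240, mm9), which takes in 11 of the 15 H2A and 11 of the 17 H2B genes. The only other such pair with starts within 1000 bp is Hist1h2bh with Hist1h3f, 608 bp apart. One shared stretch with the octamer is shown whole, because it fills the space between both starts, at chr13:23571221-23571399 on the strand of Hist1h2bg, with the same matches in capitals.
Hist1h2ae and Hist1h2bg: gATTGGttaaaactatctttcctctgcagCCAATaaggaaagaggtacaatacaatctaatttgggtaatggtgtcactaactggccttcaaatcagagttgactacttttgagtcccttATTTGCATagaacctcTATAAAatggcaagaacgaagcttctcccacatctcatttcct

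The octamer had 1 orientation. It read ATTTGCAT on the gene's own strand in all 6 H2B promoters that hold it, and on the opposite strand in all 7 such H2A promoters. These are not all separate sites. Hist1h2ae and Hist1h2bg share the same octamer, as do Hist1h2ah and Hist1h2bk, and by its place Hist1h2aa and Hist1h2ba. In these pairs the orientation for 1 gene fixes that for the other. The shared octamer began 59 bases before the start of Hist1h2bg, 30 before that of Hist1h2bk and 164 before that of Hist1h2ba.

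The phase comparison asks how the histone mRNAs measured here differ between early G1, late G1 and G2. They were lower in G2, at all types, but no gene passed the test. The summed level of the 60 genes in early G1 was 33376, 32538 and 24363 CPM with DOX and 30816, 29281 and 32371 after withdrawal. In late G1 it was 32046, 32812 and 35303 CPM with DOX and 32497, 36054 and 25539 after withdrawal. In G2 it was 30564, 13863 and 21939 CPM with DOX and 12096, 28051 and 23284 after withdrawal.

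A pair of G2 libraries stood far below all others: replicate 2 with DOX and replicate 1 after withdrawal. Histone genes took 1.38% and 1.20% of their counts, against 2.24% to 3.08% in the other 4 G2 libraries and 2.47% to 3.48% in the 12 G1 libraries. They were the library with the fewest exonic counts, 11.1 M, and the one with the most, 31.8 M. The highest G2 library lay within the range of the G1 libraries, so the groups overlap.

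**Figure D2:**
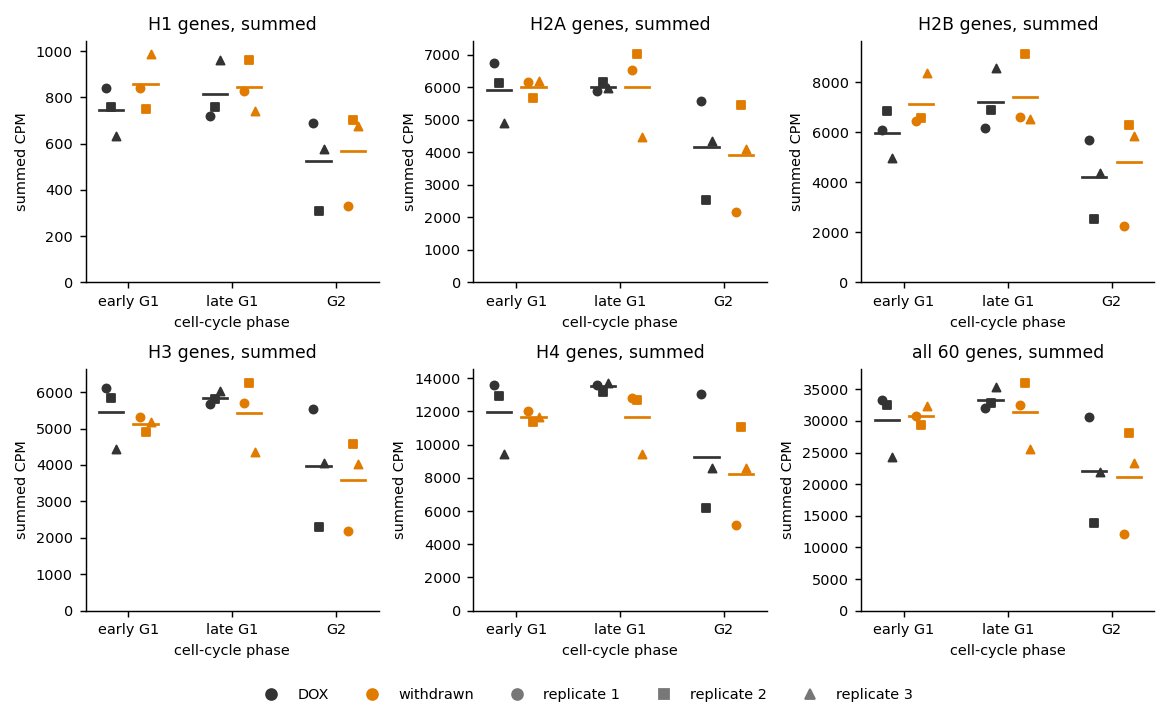
Summed CPM of the genes of each histone type and of all 60 genes (linear axes from 0) in each library, by cell-cycle phase, with DOX in black and after 24 h of withdrawal in orange; symbols mark the replicate number and bars the mean of 3 libraries. In each panel the lowest points are G2 with DOX replicate 2 and G2 withdrawn replicate 1.

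Each type was lower in G2. Summed H4 was 11834 ± 1448 CPM (SD, n = 6) in early G1 and 12588 ± 1594 in late G1, but 8773 ± 2949 in G2. Summed H2B, which pairs with H2A in the nucleosome, was 6545 ± 1104, 7305 ± 1222 and 4501 ± 1750 CPM. H2A was 5975 ± 621, 6012 ± 859 and 4033 ± 1431 CPM, and H3 was 5302 ± 607, 5642 ± 673 and 3780 ± 1314.

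H1 sums were 801 ± 117 CPM in early G1 and 828 ± 110 in late G1, but 546 ± 182 in G2. The highest H1 sum in G2, 700 CPM, lay among the G1 libraries, which ran from 634 to 985. Without the pair of low libraries the sum of all 60 genes in G2 was 25960 ± 4037 CPM (n = 4), against 30457 ± 3321 in early G1 and 32375 ± 3719 in late G1 (n = 6). In bulk samples, fewer cells with the mRNA and less mRNA per cell cannot be told apart.

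By edgeR, no histone gene was called between G2 and early G1 at an adjusted p under 0.05, nor was any other gene (0% of 14092). The lowest adjusted p among the 60 was 0.53. With the replicate number as a block it was 0.13, and again 0 were called. At an unadjusted p under 0.05, 54 of the 60 were lower in G2 and 0 higher, where 5.39% of all genes tested were lower and 9.08% differed either way. The members' median log2 change was -0.53, and that of all genes tested was 0.00 (-0.0029). Medians by type were -0.51 for H1, -0.56 for H2A, -0.55 for H2B, -0.50 for H3 and -0.44 for H4. Since copies share their variation, these are not 54 separate observations.

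That count rests on single libraries. It was 21 without G2 DOX replicate 2, 31 without G2 withdrawn replicate 1, 32 without early G1 DOX replicate 2, and 14 without both low G2 libraries, where the median log2 change was -0.24.

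Against late G1 the pattern was alike. None of the 60 genes, and no gene of the table (0%), was called (lowest edgeR adjusted p 1.00). With the replicate number as a block the lowest among the 60 was 0.34, and again 0 were called. At an unadjusted p under 0.05, 57 of the 60 were lower in G2, where 2.24% of all genes tested were lower and 4.41% differed either way. The median log2 change was -0.59, with -0.86 for H1, -0.71 for H2B, -0.58 for H2A, -0.58 for H3 and -0.52 for H4. Without both low G2 libraries 40 remained under 0.05 and the median was -0.31.

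Between late and early G1 the genes were close to each other. None was called (0% of all genes), and 0 of 60 had an unadjusted p under 0.05, where 2.91% of all genes did. The median log2 change was 0.09, and 17 of 17 H2B and 10 of 10 H3 genes were on the higher side in late G1. For H2A the changes lay between -0.05 and 0.04.

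**Figure D3:**
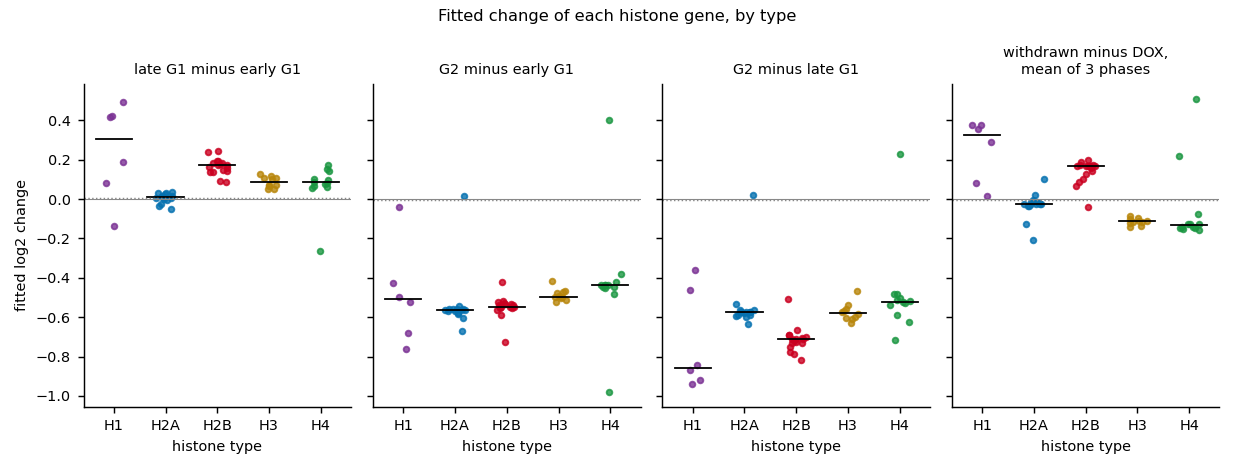
Fitted log2 change of each of the 60 histone genes by type in 4 comparisons, with black bars at the median of the type and a dotted line at the median of all genes tested. Most points lie below 0 in both G2 comparisons and lie near 0 in late against early G1; after withdrawal the H1 and H2B medians are above 0 and those of H3 and H4 below; none of the changes passed the test.

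Single genes followed the sums, with few exceptions. Hist1h4j had 1030 to 1499 CPM in early G1 (median 1295), 995 to 1487 in late G1 (median 1416) and 549 to 1422 in G2 (median 926). Its log2 change from early G1 to G2 was -0.45 ± 0.18 (SE, edgeR adjusted p = 0.53). Hist1h4h had 682 and 786 CPM in the low G2 libraries and 1051 to 1683 in the other 4. Its change was -0.42 ± 0.18.

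Among H3 genes Hist1h3b had 483 to 648 CPM in early G1 and 483 to 700 in late G1, but 240 to 612 in G2, a log2 change from late G1 of -0.60 ± 0.19 (edgeR adjusted p = 1.00). The H2A gene Hist1h2ai ranged from 467 to 639 CPM in early G1 and from 204 to 533 in G2. Its head-to-head partner Hist1h2bl ranged from 387 to 656 CPM and from 185 to 484. The ranges of these genes overlap between the phases, and their lowest values are those of the low G2 libraries.

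Among the linker histones, Hist1h1c stood at 20.7 and 36.7 CPM in the low G2 libraries, at 74.6 to 107 in the other G2 libraries, and at 81.7 to 166 in G1. Its log2 change from late G1 to G2 was -0.84 ± 0.30 and that of Hist1h1e -0.94 ± 0.28, where Hist1h1a had -0.36 ± 0.17, all with an edgeR adjusted p of 1.00. The members lying lowest against early G1 included Hist4h4 at -0.98 ± 0.30, with 11.8 and 12.4 CPM in the low G2 libraries, 33.1 to 57.4 in the other G2 libraries and 42.9 to 82.1 in early G1.

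Only 2 members had positive changes in both G2 comparisons, and both lie near the count limit. Hist1h4m had 0.673 to 5.63 CPM, with its highest value in G2 withdrawn replicate 1, where nearly all other members had their lowest. Hist1h2ao ranged from 0.364 to 3.15 CPM. The correlation of their log2 CPM with that of the summed members was -0.15 and 0.39. Hist1h1t, at 0.55, and Hist1h1b, at 0.64, were the next lowest.

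The sorted fractions were set beside the histone level through fixed lists of cell-cycle genes. The 16 G2/M genes, which include the sort reporter's gene Ccna2, summed to 6666 ± 799 CPM in G2, 4522 ± 1304 in late G1 and 3944 ± 1464 in early G1 (SD, n = 6). In early G1 the sums ran from 2411 to 5792 CPM and in late G1 from 2928 to 6300, overlapping the 5835 to 7612 of G2. Of these genes 12 of 16 had an unadjusted p under 0.05 on the higher side in G2 against early G1 and 12 of 16 against late G1, and 0 were called (edgeR).

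Histone sums tended to be lower in libraries with a high G2/M sum, with exceptions. The low G2 libraries had the highest G2/M sums of all, 7612 and 7587 CPM. The early G1 library with the lowest histone sum, DOX replicate 3, had a G2/M sum of 5728 CPM, and the late G1 library with the lowest, withdrawn replicate 3, had 6300. Against this, G2 DOX replicate 1 had a G2/M sum of 5835 CPM and a histone sum of 30564, and late G1 DOX replicate 1 had 5662 and 32046. Early G1 withdrawn replicate 2 had 5792 and 29281 CPM. Over the 18 libraries, which share their depth and scaling between both sums, Pearson's r of the log2 sums was -0.68 and Spearman's rho -0.82. Without the 2 libraries farthest from the median G2/M sum r was -0.72.

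Within G2 r was -0.94, within early G1 -0.79 and within late G1 -0.49 (n = 6 each). Without the 2 farthest libraries of each it was -0.72, -0.18 and -0.08. In early and late G1 the relation thus rests on those libraries. The comparison was chosen after these values were seen, it is given as a description, and the part of the sorting in the differences between phases was not tested.

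**Figure D4:**
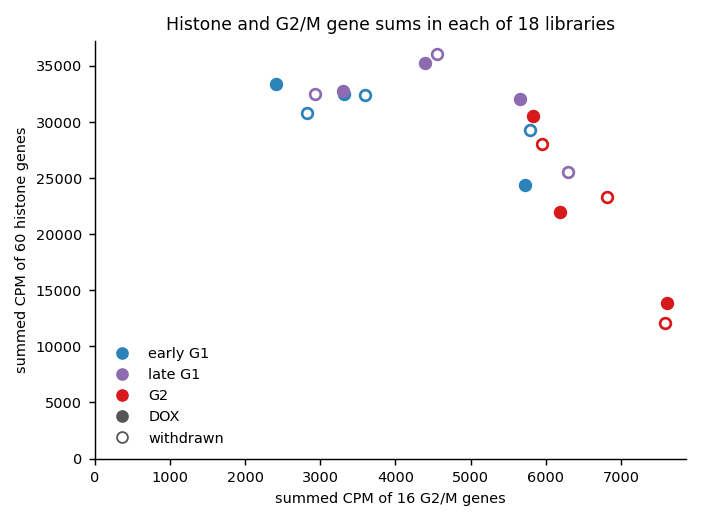
Summed CPM of the 60 histone genes (vertical) against that of 16 G2/M genes (horizontal) in each of the 18 libraries, linear axes from 0, coloured by phase, filled with DOX and open after withdrawal. The 2 libraries at the lower right are G2 libraries with histone sums of 13863 and 12096 CPM, and early and late G1 points reach G2/M sums of 5792 and 6300 CPM.

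The 21 S-phase genes, such as Pcna and the Mcm helicase subunits, were a separate gauge. They summed to 5576 ± 605 CPM in late G1, 4741 ± 481 in early G1 and 4688 ± 352 in G2. All 21 were on the higher side in late against early G1, 10 of them with an unadjusted p under 0.05, and 11 were lower in G2 against late G1 at that level. None was called. The summed histone genes had 32375 ± 3719 CPM in late and 30457 ± 3321 in early G1. Between the log2 sums of both sets Pearson's r was 0.43 over the 18 libraries (Spearman's rho 0.48). Within early G1 it was -0.23, within late G1 0.44 and within G2 0.58 (n = 6 each). Without the 2 libraries farthest from the median S-phase sum r was 0.62 over all libraries and 0.79 within early G1.

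Withdrawal of DOX for 24 h asks whether histone gene levels change when the Esrrb transgene is switched down. No histone gene was called in any phase. In early G1 0 of 60 were called against 0.163% of all genes tested, in late G1 0 against 0.461%, and in G2 0 against 0.972%. At an unadjusted p under 0.05 there were also 0 of 60 in each phase, against 9.63%, 13.1% and 14.4% of all genes. As a mean over the 3 phases, where 16.9% of all genes were called and 31.5% had an unadjusted p under 0.05, 0 of 60 passed either limit. With the replicate number as a block, 4.03% of all genes were called in early G1, 9.04% in late G1, 11.2% in G2 and 36.0% over the phases, and still 0 of the 60.

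The unadjusted counts and the sign of the members' median depend on single libraries. Without G2 withdrawn replicate 1, the library with the lowest histone sum, 11 of 60 were higher after withdrawal in G2 at an unadjusted p under 0.05, and 6 of 60 as a mean over the phases. The median log2 change in G2 was then 0.21, against -0.08 with all libraries. It was 0.20 without G2 DOX replicate 1 and -0.35 without G2 withdrawn replicate 2. In early G1 it ran from -0.07 to 0.12 and in late G1 from -0.16 to 0.12 when 1 library was left out.

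The members' median log2 change over the phases was -0.02 (-0.13 to 0.08 when 1 library was left out), and that of all genes tested 0.00 (-0.0044). The smallest adjusted p among the members was 0.28, for Hist1h1e with 0.37 ± 0.23 (SE, edgeR). In that fit, without the replicate block, 2 SE leave room for a change of either sign. With the block the smallest edgeR adjusted p among the members was 0.12. For Hist1h4j the change was -0.15 ± 0.15 and for Hist1h2ai -0.03 ± 0.16.

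The response to withdrawal did not differ detectably between the phases. In the tests of the difference itself 0 of 60 genes and 0% of all genes were called for each of the 3 pairs of phases (late and early G1, G2 and early G1, G2 and late G1). At an unadjusted p under 0.05 the shares of all genes were 0.255%, 0.454% and 0.511%, in that order.

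The types moved unequally after withdrawal, though no gene's own level passed the test. Median log2 changes over the 3 phases were 0.32 for H1 and 0.17 for H2B, against -0.03 for H2A, -0.11 for H3 and -0.13 for H4. All 6 H1 and 16 of 17 H2B genes were on the higher side, and 10 of 10 H3 and 10 of 12 H4 genes on the lower side. Within a type these signs are not independent.

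The ratio of summed H2B to summed H4 CPM with DOX was 0.448, 0.529 and 0.526 in early G1, 0.452, 0.521 and 0.624 in late G1 and 0.435, 0.407 and 0.510 in G2. After withdrawal it was 0.536, 0.579 and 0.717 in early G1, 0.514, 0.717 and 0.692 in late G1 and 0.442, 0.569 and 0.681 in G2. Group means were 0.501 ± 0.046 with DOX and 0.611 ± 0.094 after withdrawal in early G1, 0.532 ± 0.087 and 0.641 ± 0.111 in late G1, and 0.451 ± 0.053 and 0.564 ± 0.120 in G2 (SD, n = 3). The withdrawn mean was the higher in all phases, but only in early G1 were all withdrawn libraries above all DOX libraries. Between libraries of the same phase and number, which vary together, the withdrawn library was higher in 9 of 9 pairs, by a median log2 difference of 0.26 (range 0.02 to 0.48). Most libraries of the same number also varied together between phases, so these are not 9 separate observations.

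The ratio of H1 to H4 had means of 0.0625 ± 0.0044 with DOX and 0.0735 ± 0.0097 after withdrawal in early G1, 0.0602 ± 0.0089 and 0.0729 ± 0.0075 in late G1, and 0.0563 ± 0.0094 and 0.0689 ± 0.0084 in G2. In every phase the groups overlapped, and the withdrawn library was higher in 9 of 9 same-numbered pairs, by a median of 0.28 (range 0.16 to 0.40). Here too the 9 pairs are not separate observations, and this ratio shares the H4 sum with that of H2B. The ratio of H2A to H4 was higher in 7 of 9 such pairs and that of H3 to H4 in 5 of 9. For H3 to H4 the withdrawn mean was lower in early G1, at 0.440 ± 0.006 against 0.458 ± 0.013, and higher in late G1, at 0.466 ± 0.025 against 0.433 ± 0.014. Between phases the H2B to H4 ratio was 0.507 ± 0.103 in G2, against 0.556 ± 0.089 in early G1 and 0.587 ± 0.107 in late G1 (SD, n = 6), within the spread of the libraries. These ratios are given as a description, without a test, as they were chosen with the values known. A ratio shows unequal change and does not say which type changed.

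**Figure D5:**
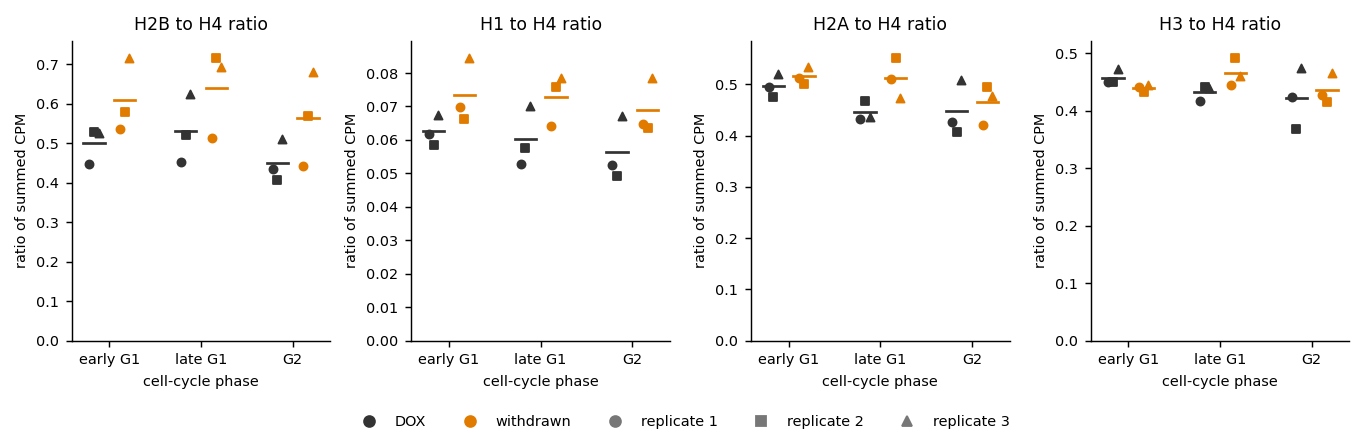
Ratio of the summed CPM of H2B, H1, H2A and H3 genes to that of H4 genes in each library (linear axes from 0), by phase, with DOX in black and after withdrawal in orange; symbols mark the replicate number and bars are means of 3. The orange bars lie above the black ones in each phase for H2B and H1, from 0.501 and 0.611 in early G1 for H2B, while single libraries of both states overlap in late G1 and G2, and for H1 in early G1 too.

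Histone genes outside the clusters gave a comparison within the same libraries. Of 12653 genes with a mean of at least 1 CPM, the closest in pattern to the summed histone genes over the 18 libraries were H2afx, with r = 0.972, and H2afj, with r = 0.956. H2afx encodes H2A.X, phosphorylated at DNA breaks, and its gene can yield both a stem-loop and a tailed mRNA. H2afj encodes the variant H2A.J. Paqr4 followed with 0.893, Tssc4 with 0.890 and Ifi27 with 0.876, of which Ifi27 had a mean of 1.03 CPM.

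H2afx had 402 to 453 CPM in early G1 and 363 to 488 in late G1, but 235 to 414 in G2. The lowest values, 235 and 280 CPM, were those of the low G2 libraries. Its log2 change from late G1 to G2 was -0.37 ± 0.12 (edgeR adjusted p = 1.00). With any single clustered gene its counts had a chi-square of at least 5.86 per degree of freedom, where tight pairs lie under 0.5.

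Other replication-independent variants had other patterns. H2afz, the H2A.Z gene, had 968 ± 107 CPM in G2, against 953 ± 108 in early G1 and 1046 ± 220 in late G1. H3f3a, for H3.3, had 657 ± 55 CPM in G2, against 608 ± 61 and 645 ± 51 (SD, n = 6). Cenpa, the centromere variant, had 98.8 ± 16.6 CPM in G2, against 73.4 ± 22.3 and 65.4 ± 11.96. None of the 11 variants was called in any of the comparisons, although 2 were higher (H2afz, H3f3b) and 2 lower (H2afv, H2afy2) over the phases after withdrawal with the replicate block. Their median log2 change from early G1 to G2 was 0.04. Pearson's r between the log2 sums of the 11 variants and of the clustered genes was 0.36 over the 18 libraries.

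The factors that make and process histone mRNA showed no phase difference that passed. Slbp, which binds the stem-loop, had 179 ± 38 CPM in G2, against 203 ± 33 in early G1 and 229 ± 33 in late G1, and its log2 change from late G1 to G2 was -0.36 ± 0.13 (edgeR adjusted p = 1.00). Of 21 genes on this list, with Npat, which activates histone transcription, and the 3' end factors, 0 were called in a phase comparison.

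After withdrawal, as a mean over the phases, 4 of the 21 were higher and 0 lower, against 16.9% of all genes either way. Ncbp2, of the cap-binding complex, rose by 0.48 ± 0.10 (edgeR adjusted p = 0.0036). Zcchc11, a uridylyl transferase, rose by 0.38 ± 0.10, Srrt (ARS2), a partner of the cap-binding complex, by 0.37 ± 0.10, and Cpsf2 (CPSF100), of the cleavage complex, by 0.19 ± 0.06. Slbp had a change of -0.13 ± 0.11. The list's median change was 0.01. With the replicate block 6 were called higher and 2 lower (Lsm10 and Mif4gd), against 36.0% of all genes.

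Histone chaperones and importers gave 4 of 19 higher and 0 lower in the same comparison, against 16.9% of all genes either way, with a median of 0.13. Nap1l1, an H2A-H2B chaperone, rose by 0.42 ± 0.08 (edgeR adjusted p = 0.0020) and Ipo4, an importin that carries H3-H4 with ASF1, by 0.39 ± 0.10. Rbbp4, of the CAF-1 complex, rose by 0.29 ± 0.07 and Ssrp1, of FACT, by 0.26 ± 0.07. With the replicate block 8 of the 19 were higher and 0 lower, against 36.0% of all genes either way. Of the S-phase genes 0 of 21 passed (4 higher with the block), and of the 16 G2/M genes Ccnb2 fell by 0.39 on the log2 scale (± 0.06).

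Esrrb binding near the histone genes was read from the deposited table of 14559 Esrrb peaks (mm9). A peak lay within 10 kb of the start of 16 of the 60 genes (26.7%), where 22.3% of all genes in the exonic table had one. The nearest peaks of these genes were 7 separate ones, since neighbouring genes share a peak. The authors class 5 of the 7 as Lost and 2 as Bookmarked in mitosis. Further peaks within 10 kb of a start were not counted. By type the genes with a peak were 3 of 6 H1, 4 of 15 H2A, 3 of 17 H2B, 4 of 10 H3 and 2 of 12 H4 genes.

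The starts of Hist1h3i (chr13:21875251-21876300, Lost) and Hist2h2ab (chr3:96022351-96023850, Bookmarked) lie inside a peak. Peaks lie 425 bp from the start of Hist1h1c, 445 from Hist1h4b and 614 from Hist1h1a. Among these, Hist1h1a had a log2 change of 0.01 ± 0.14 after withdrawal and Hist1h1c 0.08 ± 0.24 as a mean over the phases (edgeR adjusted p = 0.96 and 0.86). Hist1h3i, like all 10 H3 genes, was on the lower side (median -0.11 for H3). Hist2h2ab had means of 89.6 CPM with DOX and 84.1 after withdrawal in early G1, 88.6 and 80.8 in late G1, and 57.3 and 51.8 in G2. None of these genes was called.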

How the data were processed

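For each RefSeq transcript the authors deposited the exonic and the intronic count in the 18 RNA-seq libraries, not normalized, per the file headers. The submitters' processing notes list Bowtie, CASAVA 1.8, DESeq2 and build mm9 without their roles. The sources used here do not give the counting tool, its strand setting or its treatment of reads that match several copies. The deposited peak table gives a class per Esrrb peak, and its 16 columns of heights were not used. All 27 symbols turned into dates were restored by accession.

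Exonic counts entered 1 fit of 6 group means (edgeR 4.0.16, R 4.3.3: filterByExpr, TMM, quasi-likelihood test, Benjamini-Hochberg at 0.05 over 14092 genes), with 12 residual degrees of freedom and a biological coefficient of variation of 18.7%. CPM are TMM-scaled. The SE is the absolute log2 change divided by the square root of F. The fit was tested on simulated data. Depth was 11.1 to 31.8 M exonic counts per library, and no 2 libraries were duplicates. Deviations from the group means over all genes tested correlated above 0.1 in all 9 same-numbered pairs of withdrawn and DOX libraries of a phase and in 12 of 12 between late G1 and G2, but in 11 of 12 between early and late G1 and 11 of 12 between early G1 and G2. By that check, not by the labels, the numbers were taken as pairs for withdrawal and for G2 against late G1, and the blocked fit is given where it moved a count. Deposited starts count from 0 and are given from 1.

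Named are the 4 members per type with the highest CPM per kb, any called member, called genes of the lists (at most 5), the 5 nearest patterns and the genes beside the limit of 100 counts. Hist4h4, Hist1h1b, Hist1h4i, Hist2h4, Hist2h2be, Hist1h2aa, Hist1h2ba and pairs of copies were chosen after their values were seen. The members and lists were chosen with earlier results of these data known. Alternatives were a replicate block, DESeq2 1.42.0, DESeq2 size factors, no filter on low counts, at least 1000 counts, 1 DOX state, fewer groups in the fit and leaving out each library.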

Additional observations from a re-analysis of the deposited data

How the results depend on the processing

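No histone gene was called in any of the 10 comparisons under any alternative run. The count of members lower in G2 than in early G1 at an unadjusted p under 0.05 (54 as reported) was 2 with DOX libraries only, 17 with withdrawn libraries only and 14 without both low G2 libraries, an alternative chosen after seeing the data, and it ran from 21 to 56 when 1 library was left out. Against late G1 (57 as reported) it was 32 with DOX libraries only and 25 with withdrawn libraries only, and it ran from 54 to 58 when 1 library was left out. The cause was not tested beyond the smaller number of libraries. No phase comparison changed the sign of the members' median when 1 library was left out, but those of withdrawal did: it ran from -0.35 to 0.21 in G2 and from -0.13 to 0.08 over the phases, and for the difference in response between G2 and early G1 from -0.34 to 0.21.

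With the replicate block, 56 members were lower in G2 than in early G1 and 57 than in late G1 at an unadjusted p, and 0 were called. Of all genes, the replicate block called 258 higher and 310 lower after withdrawal in early G1 (6 and 17 as reported), 677 and 597 in late G1 (26 and 39), 813 and 767 in G2 (48 and 89), and 2538 and 2530 as a mean over the phases (1188 and 1194). The block lowered the biological coefficient of variation from 18.7% to 11.5%. It changed the call of no histone gene. DESeq2 called 46 and 83, 167 and 165, and 222 and 227 of all genes after withdrawal in early G1, late G1 and G2. Fits of the 2 compared groups alone called 2 and 4, 0 and 2, and 8 and 17 of all genes there.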
